A study of Mus musculus with 4 samples.

Results

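Fibroblasts of the mouse submandibular gland in which no RNA molecule of Pi16 or Dpp4 was counted were taken from 4 stroma-enriched single-cell libraries and compared between glands recovering from duct ligation and undisturbed glands. Members were chosen by their own UMI counts (unique molecular identifiers, counts of captured RNA molecules): a cell barcode was a member when it had at least 1 UMI of Pdgfra, at least 4 UMIs of Dcn, Lum, Dpt and Clec3b together, and none of Pecam1, Cdh5, Ptprc, Pi16 or Dpp4. The rule found 1122 members among 36685 retained cells, from 39558 deposited barcodes. A further 390 cells met the same rule with at least 1 UMI of Pi16 or Dpp4, so that the rule held 1512 fibroblasts in all.

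Cells came from female C57BL6/J mice after enzymatic dissociation, bead depletion of EpCAM and Ter119 cells and removal of dead cells. In the 2 deligated libraries (age 14 weeks) a metal clip had closed the main ducts for 14 days and had been off for 5 days at harvest. The 2 homeostatic libraries came from mice of 12 weeks that had no surgery, so age differed together with the surgery, and no sham operation is among the groups. The protocols name sublingual glands beside submandibular ones and do not say how many animals gave a library, so p-values measure the spread between these libraries, which may be technical.

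Fibroblasts build and renew the matrix between the secretory units, ducts and vessels of a gland. In many mouse organs, fibroblasts with Pi16 and Dpp4 lie in the adventitia, the outer coat of vessels and ducts, while fibroblasts within the parenchyma express basement membrane genes such as Col15a1 and local growth signals. After injury, fibroblasts can raise fibrillar collagens, matricellular proteins, which act on cells rather than as scaffold, and enzymes that cross-link collagen.

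Libraries differed before any gene was compared. Members had a median of 12845.5 and 8803 UMIs per cell in the deligated libraries and 6531 and 6511.5 in the homeostatic libraries, and their summed counts ranged from 1714702 to 3458478 UMIs. The file headers name Cell Ranger 6.0.1 for the deligated and 7.0.0 for the homeostatic libraries, and the effect of the version and that of the surgery cannot be told apart. Of member UMIs in the deligated libraries, 8.78% and 8.30% fell on genes with more than 100 kb of intron, and in the homeostatic libraries 15.9% and 16%. Of those 1403 genes 64.9% passed the threshold between groups, with a median log2 fold change of -0.96, against 12.6% of genes with 2 to 20 kb of intron, whose median was 0.18. Each gene tested between groups in members was therefore also fitted with the trend on intron length removed. The trend was not removed from the interactions or from the fit over all fibroblasts given below. Pairs of libraries shared between 14 and 54 cell barcodes.

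The 12 fibroblast markers, which include the genes that chose the cells, together stood at 29739 to 39685 CPM (a gene's UMIs relative to all UMIs of the summed cells, in the usual library-scaled unit) in members, all at 10 CPM or more in every library. In endothelial cells of the same libraries these markers summed to 5.66 to 68.0 CPM, in part because those cells were taken without UMIs of the same genes. Smoc2, a matrix protein of the SPARC family that the rule did not use, was at 708 and 1083 CPM in the deligated and 717 and 699 CPM in the homeostatic libraries, and had a UMI in 52.8% to 64.9% of members once every cell was thinned to 2000 UMIs, against 0.0283% to 1.05% of endothelial cells. It was not particular to members: in Pi16 or Dpp4 fibroblasts Smoc2 was at 989, 1221, 492 and 1176 CPM in the same order of libraries.

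Markers of other cell types were present in members, and the sums of some of them lay apart between the groups. Of 23 epithelial and secretory markers in the files, 4 to 7 were at 0 in members, and their sum was 48.0 and 106 CPM for the deligated against 3082 and 1910 CPM for the homeostatic ones. Endothelial cells, which should lack them, had sums of 30.7, 143, 4041 and 3607 CPM. Erythroid markers summed to 19.3 and 1648 CPM against 5756 and 4745 CPM, with 0 or 1 of 5 markers at 0, and Hbb-bs, a haemoglobin chain, alone was at 3874 and 2761 CPM in homeostatic members. A Hbb-bs UMI was found in 15.2% and 49.3% of deligated and in 41.1% and 24.6% of homeostatic members. In the homeostatic libraries the 10% of members with the most Hbb-bs held 98.7% and 99.2% of its UMIs. There 3311 of 6642 and 3830 of 4792 were in 1 cell of each library, and 3376 of 3684 were in 1 cell of deligated library 2. Immune markers summed to 50.0, 167, 707 and 104 CPM, of which 410 CPM in homeostatic library 1 was Cd74, and endothelial markers to 124, 243, 114 and 134 CPM, so that the groups overlapped in both. Mural markers, of cells around vessels, summed to 429, 688, 313 and 378 CPM with none at 0, and Schwann markers to 66.2, 68.2, 132 and 139 CPM, most of it Cdh19. Their part in the results below was tested only by leaving out members with any UMI of 8 epithelial, mural or Schwann genes (40, 79, 58 and 53 cells).

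The most abundant transcripts of members, apart from mitochondrial and ribosomal protein genes, were Malat1, Gm42418, Gsn, Dcn, Mgp, Cxcl14, Fth1, Col3a1, S100a6, Col1a2, Mucl2, Apod, Igfbp7, Tpt1 and Itm2b. Gsn, an actin-severing protein, was at 13552 and 20503 CPM in the deligated and 16770 and 17342 CPM in the homeostatic libraries, so that the groups overlapped. Cxcl14, a chemokine, was nearly level at 5068, 5558, 5302 and 5349 CPM (log2 fold change 0.02, SE 0.11, edgeR adjusted p 0.903). Mgp, an inhibitor of calcification, was higher in both deligated libraries, at 7179 and 8228 against 4969 and 5006 CPM (log2 fold change 0.65, SE 0.11, adjusted p 0.00217). Gm42418, a gene model that overlaps ribosomal RNA sequence, set deligated library 2 apart, at 10446 CPM against 35386 to 46032 CPM in the other libraries. Mucl2, a salivary secretory product, was at 120 and 175 CPM against 7458 and 6827 CPM, but endothelial cells held it at 60.5 and 983 against 17270 and 14257 CPM. After thinning, 98.8% and 99.6% of homeostatic members and 99.0% and 99.5% of homeostatic endothelial cells had a Mucl2 UMI. The 10% of homeostatic members with the most Mucl2 held 60.8% and 57.6% of its UMIs, up to 4369 and 4976 in 1 cell. The source of this RNA was not tested.

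Members were a larger share of retained cells in the deligated libraries. They made up 4.38% (95% Clopper-Pearson interval 3.80 to 5.02) and 4.79% (4.35 to 5.27) in deligated libraries 1 and 2, and 2.20% (1.94 to 2.48) and 2.19% (1.93 to 2.47) in the homeostatic libraries. The group means were 4.59% ± 0.293 and 2.20% ± 0.0103 (SD, n = 2 each), a ratio of 2.09. The groups did not overlap. The exact permutation test gave a two-sided p of 0.333, the smallest that 2 libraries a group allow. Bead depletion sets the other cells in this denominator, and the intervals cover counting error only.

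**Figure D1:**
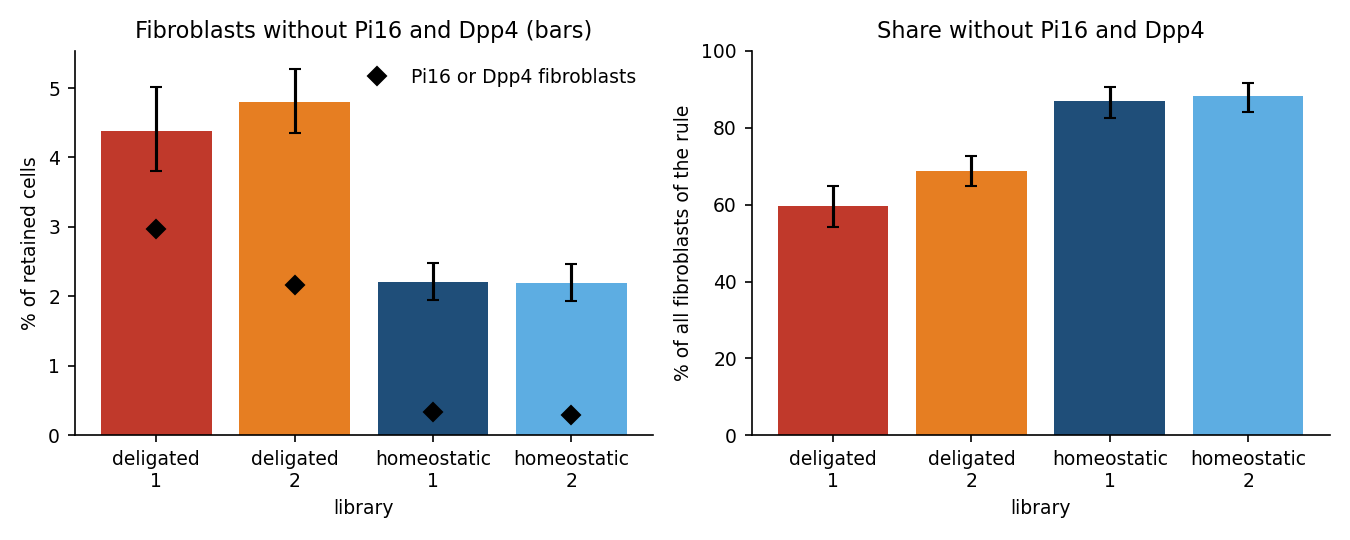
Left, share of retained cells per library (%) that were fibroblasts without Pi16 and Dpp4 (bars, with 95% Clopper-Pearson intervals) or with Pi16 or Dpp4 (diamonds); right, share of all fibroblasts of the rule that had neither gene. Members take 4.38% and 4.79% of deligated cells against 2.20% and 2.19% of homeostatic cells, while their share among fibroblasts is lower in the deligated libraries.

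Within the fibroblasts the shares ran the other way. Members were 59.6% (54.1 to 65.0) and 68.8% (64.9 to 72.6) of deligated fibroblasts and 86.9% (82.5 to 90.5) and 88.3% (84.1 to 91.7) of homeostatic fibroblasts, with means of 64.2% ± 6.50 and 87.6% ± 1.01 (SD, n = 2 each; exact permutation p 0.333). Pi16 or Dpp4 fibroblasts were 2.57% ± 0.561 of deligated and 0.312% ± 0.0303 of homeostatic retained cells (SD, n = 2 each), 8.24-fold apart. A cell with fewer UMIs meets the condition of no Pi16 or Dpp4 UMI more easily. With every cell thinned to 2000 UMIs before the rule, members were 83.1% ± 0.364 and 93.7% ± 1.25 of fibroblasts (SD, n = 2 each), so that the difference kept its direction at less than its unthinned size.

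The cells just across the threshold were few in number in the homeostatic libraries, but not as a share of the Pi16 or Dpp4 set. Of that set, 39 of 134 and 65 of 182 deligated cells had exactly 1 UMI of Pi16 and Dpp4 together. Among its homeostatic cells 11 of 39 and 17 of 35 did. Members, with none, numbered 198, 402, 258 and 264. The threshold on Dcn, Lum, Dpt and Clec3b cut through almost no cells, with 0 to 1 cells per library at exactly 4 UMIs and none at 3.

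Over all 1512 fibroblasts, where levels do not depend on the split, the 2 excluding genes were tested. Pi16, a secreted peptidase inhibitor, had 1070 and 779 UMIs in deligated and 595 and 385 UMIs in homeostatic fibroblasts, or 245, 150, 295 and 191 CPM, with overlapping groups (log2 fold change -0.24, SE 0.26, edgeR adjusted p 0.539). Dpp4, a membrane peptidase, had 50 and 11 UMIs against 124 and 92 UMIs, or 11.5 and 2.12 against 61.5 and 45.7 CPM, and fell (log2 fold change -2.97, SE 0.51, adjusted p 0.00304). In the Pi16 or Dpp4 set 133 of 134 and 179 of 182 deligated cells had Pi16 and 9 and 9 had Dpp4. Dpp4 was found in 21 of 39 and 16 of 35 homeostatic cells. After thinning, 18.2% and 16.5% of deligated and 10.1% and 6.80% of homeostatic fibroblasts had a Pi16 UMI, against 0.144% to 0.323% of endothelial cells.

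Members differed from Pi16 or Dpp4 fibroblasts in more genes in the homeostatic than in the deligated libraries. The rule chose both sets, so these ratios are a description with no test. Of 3910 genes at 50 CPM or more in either set, 359 (9.18%) differed by more than 1 on the log2(CPM + 5) scale between the sets in the homeostatic libraries, and 29 (0.742%) did so in the deligated libraries. The SD of these ratios across genes was 0.770 and 0.232. Homeostatic Pi16 or Dpp4 fibroblasts numbered 39 and 35 cells with 300911 and 276399 UMIs, against 134 and 182 cells with 1825252 and 1728438 UMIs, so their levels carry more counting error.

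The genes with the lowest ratio of members to Pi16 or Dpp4 fibroblasts were Pcolce2, Fndc1, Opcml, Cmah, Ackr3, Adgrd1, Limch1 and Nova1. Pcolce2, an enhancer of procollagen processing, was at 1.58, 1.73, 0 and 4.61 CPM in members and at 47.1, 9.84, 515 and 289 CPM in Pi16 or Dpp4 fibroblasts, the deligated libraries first. Fndc1 was at 21.7, 19.4, 5.25 and 15.0 CPM against 123, 52.1, 768 and 669 CPM. Opcml, a cell adhesion molecule, was at 0.394, 0, 7.58 and 13.3 CPM against 16.4, 3.47, 844 and 886 CPM. Ackr3, an atypical receptor that scavenges Cxcl12, was at 3.94, 9.83, 9.33 and 8.64 CPM against 23.0, 17.9, 648 and 535 CPM. For these 4 genes both homeostatic libraries of Pi16 or Dpp4 cells lay above every other value given.

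Genes with the highest ratio of members to the other set included Cxcl10, Igfbp3, Rsad2, Klk1, Crabp1, Peg3 and Hunk. Cxcl10, a chemokine induced by interferon, had a UMI in 2.27% to 6.72% of members, with 263 of 566 UMIs in 1 cell of deligated library 2 and 277 of 345 in 1 cell of homeostatic library 2. Crabp1, a cellular retinoic acid binding protein, was at 247, 355, 635 and 452 CPM in members against 124, 182, 103 and 159 CPM in Pi16 or Dpp4 fibroblasts. Hunk, a kinase, was at 35.1, 32.1, 118 and 122 CPM against 13.7, 25.5, 19.9 and 25.3 CPM. Klk1, a kallikrein of the duct cells, is a secretory product whose level in homeostatic endothelial cells was as high as in members.

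Whether the change from homeostatic to deligated differed between members and Pi16 or Dpp4 fibroblasts was tested as an interaction, with the library as a block. It passed for 413 of 11042 genes (3.74%), and for 274 of them (2.48%) the log2 change was more positive in members. The set with Pi16 or Dpp4 was itself at different levels of these genes, with Pi16 at 586 and 451 CPM in deligated against 1977 and 1393 CPM in homeostatic cells and Dpp4 at 27.4 and 6.36 against 412 and 333 CPM. These genes chose the set, and the part of the split in these calls was not tested. As a description, 13 of 19 adventitial genes outside the rule were among the calls, all 13 with a more positive change in members, and the list's median interaction was 2.19 against -0.07 over all genes tested. The list had been drawn up from genes known to mark adventitial cells, with earlier results of these data in view. Without the highest doublet scores 214 genes passed. Without deligated library 1 or 2 it was 240 and 153 genes, and without homeostatic library 1 or 2 it was 161 and 321.

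Of these adventitial genes Fn1, Igfbp6, Ackr3 and Mfap5 are given in full. Fn1, fibronectin, was at 398 and 134 CPM in deligated against 1289 and 991 CPM in homeostatic Pi16 or Dpp4 fibroblasts, while in members it was at 190 and 87.0 against 43.7 and 44.4 CPM. The log2 changes were -2.05 and 1.68, an interaction of 3.79 (SE 0.20). Igfbp6, a binding protein of insulin-like growth factors, was at 414 and 432 against 2040 and 1349 CPM in Pi16 or Dpp4 fibroblasts and at 166 and 240 against 127 and 131 CPM in members (interaction 2.60, SE 0.20). Ackr3 had a log2 change of -4.81 in Pi16 or Dpp4 fibroblasts (interaction 4.50, SE 0.46). In members its log2 change was -0.30 (edgeR adjusted p 0.653), with overlapping groups. Mfap5, a microfibril protein, rose by 1.10 in members and had a log2 change of -0.57 in the other set (interaction 1.66, SE 0.16).

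Over all 1512 fibroblasts, where the split plays no part, 11 of the 19 adventitial genes fell and 1 rose in the deligated libraries (median -1.10), beside 2968 of 11435 genes called (26.0%) and a median of 0.01. This fit was chosen after seeing the data. Fn1 was at 277 and 103 against 230 and 174 CPM there (log2 fold change -0.03, SE 0.39, adjusted p 0.968), and Igfbp6 at 270 and 304 against 413 and 299 CPM (log2 fold change -0.26, SE 0.16, adjusted p 0.269), so that both overlapped between groups. Ackr3 was at 11.9 and 12.5 against 105 and 81.0 CPM and fell (log2 fold change -2.87, SE 0.18, adjusted p 1.41e-05). Creb5, a transcription factor, was at 13.3 and 3.47 against 123 and 129 CPM and fell too (log2 fold change -3.90, SE 0.40, adjusted p 0.000191). The gene that rose was Mfap5, at 606 and 432 against 356 and 279 CPM (log2 fold change 0.77, SE 0.20, adjusted p 0.0209).

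**Figure D2:**
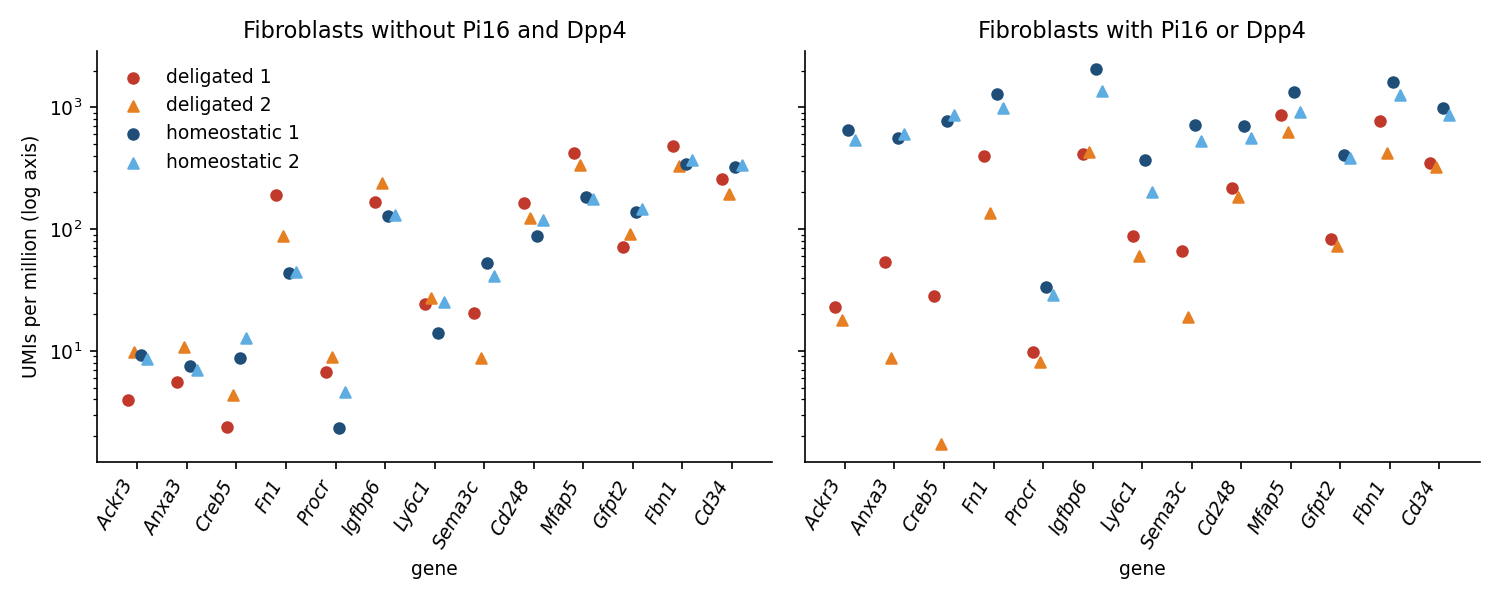
Level of the 13 of 19 adventitial genes that passed the interaction (CPM in the summed cells, log axis) in fibroblasts without Pi16 and Dpp4 (left) and with Pi16 or Dpp4 (right), 1 point per library. In the right panel both homeostatic libraries lie above both deligated libraries for these 13 genes (Fn1 1289 and 991 against 398 and 134). The genes were chosen by the interaction, of which that difference is a part. In the left panel Fn1, Igfbp6, Mfap5, Cd248 and Procr lie the other way.

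Of the 14 parenchymal fibroblast genes 4 passed the interaction, all 4 with a more negative change in members, and here too the part of the split was not tested. Col15a1, a collagen of the basement membrane zone, was at 1878 and 1796 against 505 and 879 CPM in Pi16 or Dpp4 fibroblasts, and at 2028 and 1876 against 1531 and 1543 CPM in members (interaction -1.12, SE 0.17). Cxcl14 was at 6209 and 6361 against 2811 and 2069 CPM in the other set (interaction -1.40, SE 0.13). Beside the 3.74% of all genes, 5 of 16 matricellular genes passed the interaction (3 with a more positive and 2 with a more negative change in members), and so did 8 of 26 basement membrane and microfibril genes (3 and 5). Col1a1 and Spp1 did not pass it. The log2 change of Col1a1 was 1.37 in members and 1.40 in the other set, with an interaction of -0.05 (SE 0.16, adjusted p 0.94), and that of Spp1 was 4.74 and 5.13 (interaction -0.45, SE 0.31, adjusted p 0.668).

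The 6 largest interactions rested on low or absent counts in 1 set. Rgs6, a regulator of G protein signalling, had 0 and 0 UMIs in deligated against 60 and 45 UMIs in homeostatic Pi16 or Dpp4 fibroblasts, at least 107-fold lower when 3 counts per library stand in for 0, and 1, 6, 3 and 8 UMIs in members. Smpd3, a neutral sphingomyelinase, had 38 and 0 against 174 and 117 UMIs in Pi16 or Dpp4 fibroblasts and 6, 4, 0 and 1 UMIs in members. Arl4d had 4 and 6 against 16 and 11 UMIs, beside 2, 7, 0 and 0 in members. Itgb7, an integrin chain, had 0 and 1 against 8 and 5 UMIs, beside 1, 7, 0 and 1 in members. Thbs4, a thrombospondin, had 192 and 59 against 0 and 0 UMIs, at least 6.69-fold higher, beside 105, 57, 30 and 0 in members. Npy1r, a neuropeptide Y receptor, had 25 and 51 against 0 and 0 UMIs, at least 2.07-fold higher, beside 35, 64, 26 and 24 in members.

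Between groups, members differed in many genes. Of 10734 genes tested, 2529 (23.6%) passed the threshold of 0.05 (edgeR, Benjamini-Hochberg), 784 of them (7.3%) higher and 1745 (16.3%) lower in the deligated libraries. With the trend on intron length removed 1621 (15.1%) passed, and 47.3% of these calls were higher, against 31.0% before. The median log2 fold change over all genes was 0.00. Each count rests on both deligated libraries. With either left out, 1 library stands against 2, and all 2526 calls still tested kept the sign of their log2 fold change. These calls had been selected with both libraries in the fit. With deligated library 1 or 2 left out, edgeR made 0 calls, with 3599 and 3394 genes at an unadjusted p under 0.05 and 997 and 850 calls by DESeq2. Without homeostatic library 1 or 2 it made 1075 and 1096 calls. Of 74 calls among single genes named here, all 74 were lost when deligated library 1 was left out and when library 2 was, 24 without homeostatic library 1 (adjusted p 0.051 to 0.458) and 21 without homeostatic library 2 (0.0507 to 0.266). Calls lost in both of these latter fits included those of Acta2, Igf1, Fgf10, Fn1, Serpine2, Myl9, Runx1, Fstl1 and Pdgfa. Those of Gas6, Dkk3, C2, Cyp26b1, Col4a2, Ier3, Sgk1 and Igfbp7 were lost in both as well. Calls lost only without homeostatic library 1 included those of Mfap2, Fbln1, Timp1, Ltbp3, Crabp1 and Cdkn1a. Those lost only without homeostatic library 2 included Il34 and Ifi44. These names do not cover every lost call. The 23.6% called over all genes is the background for the main counts of the gene lists that follow. For their counts with the intron trend removed it is the 15.1% called in that fit. Adjusted p values below are those of the 4 libraries together, and the range of a fold change with each library left out is given for the leading genes.

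**Figure D3:**
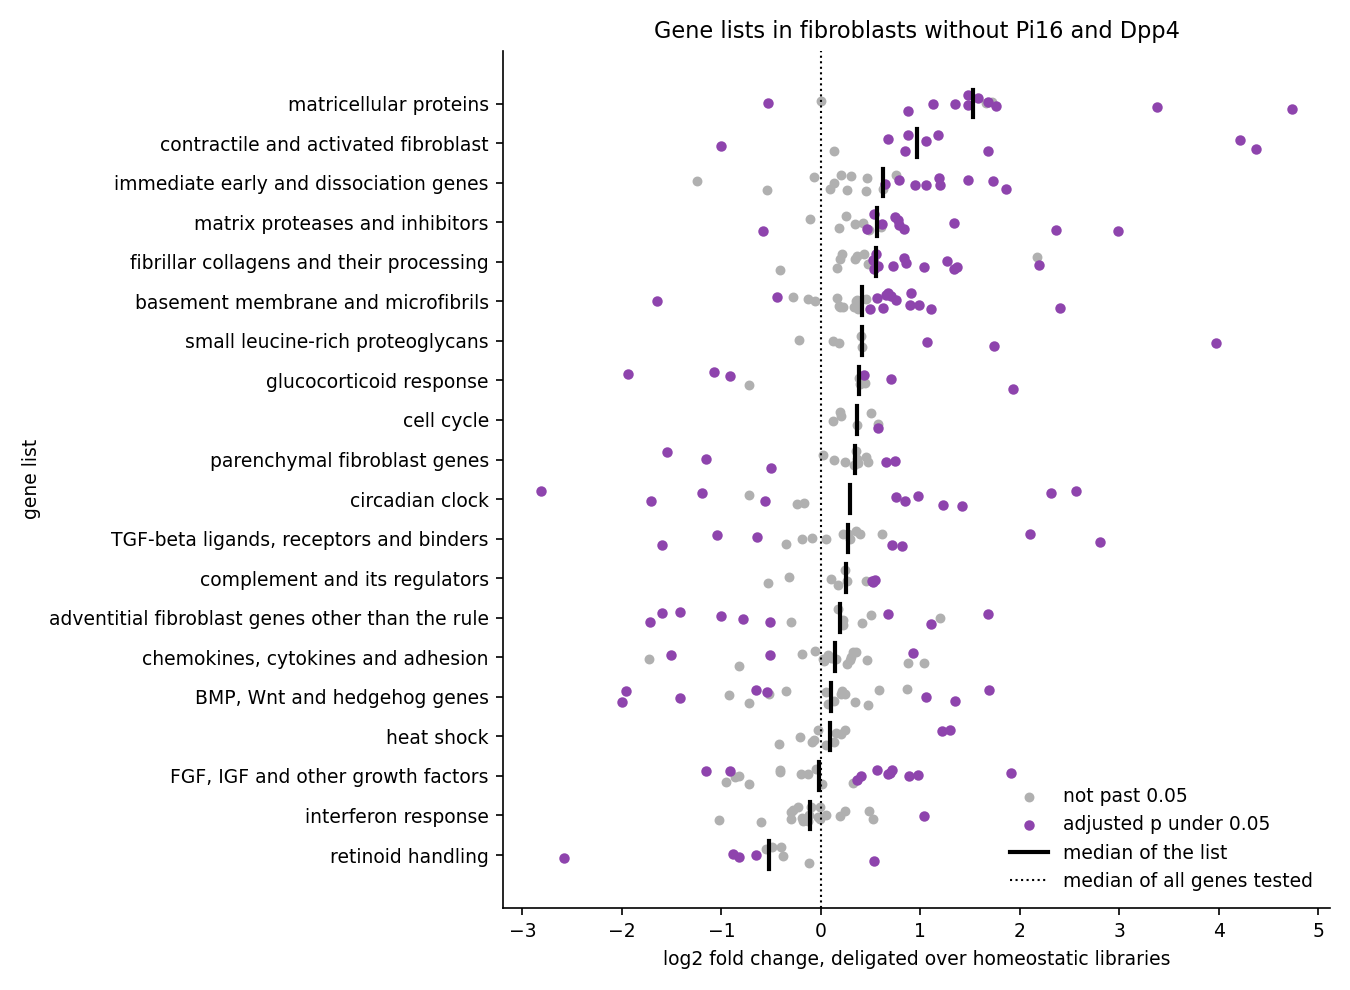
Log2 fold change of every tested gene (points) in 20 gene lists, deligated over homeostatic libraries, in fibroblasts without Pi16 and Dpp4; purple points passed an adjusted p of 0.05, bars are list medians and the dotted line is the median of all genes tested. Matricellular proteins have the highest median (1.53) and retinoid handling the lowest (-0.52).

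Of 21 tested genes of fibrillar collagen and of its processing, 12 rose in deligated members and none fell, with a median log2 fold change of 0.55 (0.70 with the intron trend removed). Col1a1 (chromosome 11, 94936224 to 94953042, GRCm38), a chain of type I collagen, was at 3927 and 3340 CPM in the deligated and 1373 and 1494 CPM in the homeostatic libraries. Both deligated libraries were above both homeostatic ones, with a log2 fold change of 1.37 (SE 0.14, adjusted p 7.34e-05, 1.22 to 1.54 with each library left out). Col3a1 (chromosome 1, 45311538 to 45349706), which co-assembles with type I collagen, was at 6768 and 5356 against 2525 and 2627 CPM (log2 fold change 1.27, SE 0.15, adjusted p 0.00018).

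Of the lysyl oxidases, which cross-link collagen and elastin, Lox, Loxl1 and Loxl2 rose. Lox was at 152 and 108 against 28 and 30 CPM, a log2 fold change of 2.19 (SE 0.22, adjusted p 6.62e-05, 1.90 to 2.48 with each library left out). After thinning, 20.4% and 19.1% of deligated members had a Lox UMI against 4.40% and 5.02% of homeostatic members, and 0.144% to 0.351% of endothelial cells did. Loxl1 was at 562 and 471 against 206 and 210 CPM (log2 fold change 1.34, SE 0.15, adjusted p 0.000116). Loxl2 was at 184 and 165 against 92.1 and 107 CPM (log2 fold change 0.83, SE 0.15, adjusted p 0.00299). Loxl3 had a log2 fold change of 0.35 (SE 0.19, adjusted p 0.211), and Loxl4, at 1.58 CPM or less in every library, was too low to test.

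**Figure D4:**
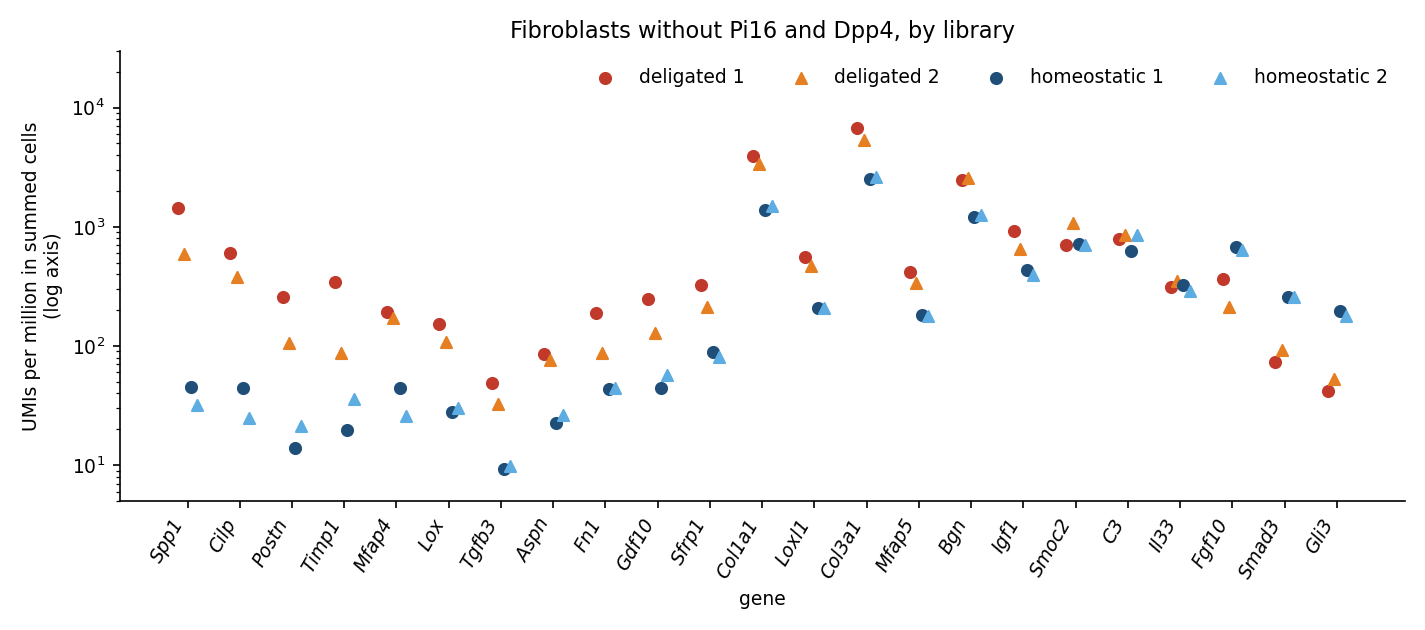
Level of 23 genes (CPM in the summed fibroblasts without Pi16 and Dpp4, log axis), 1 point per library. Spp1 lies at 1427 and 589 (deligated) against 45.5 and 32.3 (homeostatic), Smoc2, C3 and Il33 overlap between groups, and Fgf10, Smad3 and Gli3 are lower in both deligated libraries.

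Matricellular proteins had the highest median of the 20 lists. Of 14 tested, 10 rose and 1 fell, with a median log2 fold change of 1.53, and of 1.24 to 1.67 with each library left out. With the intron trend removed 9 rose and 1 fell (median 1.41). Spp1 (osteopontin; chromosome 5, 104435118 to 104441050), a secreted phosphoprotein of repair and mineralised tissue, was at 1427 and 589 CPM against 45.5 and 32.3 CPM, the deligated libraries first. The log2 fold change was 4.74 (SE 0.41, adjusted p 2.71e-05), and 3.92 to 5.29 with each library left out. After thinning, 32.7% and 36.6% of deligated members had a Spp1 UMI, against 4.00% and 1.54% of homeostatic members and 0 to 0.803% of endothelial cells. In deligated library 1 the 10% of members with the most Spp1 held 80.7% of its UMIs, up to 551 in 1 cell, and in deligated library 2 it held 59.3%.

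Other matricellular genes rose as well. Postn (periostin; chromosome 3, 54361109 to 54391037), which binds collagen and integrins, was at 256 and 105 against 14.0 and 21.3 CPM (log2 fold change 3.38, SE 0.44, adjusted p 0.000359), and its interaction with the set was 1.91 (adjusted p 0.00128), the log2 change in Pi16 or Dpp4 fibroblasts being 1.44. Wisp1, a CCN family protein, was at 38.2 and 39.3 against 11.7 and 11.5 CPM (log2 fold change 1.76, SE 0.22, adjusted p 0.000313). Fn1 rose by 1.68 (SE 0.34, adjusted p 0.00497), although deligated library 1 stood well above deligated library 2. Its range with each library left out was 0.98 to 2.20, and its adjusted p was 0.0613 and 0.0637 without homeostatic library 1 or 2.

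Small leucine-rich proteoglycans, which bind collagen fibrils, gave 3 calls of 8 tested, all 3 higher, with a median of 0.41. Bgn (biglycan) was at 2460 and 2591 against 1213 and 1254 CPM (log2 fold change 1.06, SE 0.12, adjusted p 0.000137). Aspn (asporin) was at 85.9 and 75.8 against 22.7 and 26.5 CPM (log2 fold change 1.74, SE 0.18, adjusted p 9.4e-05). Dcn and Lum of the same family had chosen the cells and were not tested. Dcn lay at 15343, 18337, 17085 and 16531 CPM.

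Of 26 basement membrane and microfibril genes tested, 12 rose and 2 fell (median 0.42), and with the intron trend removed 20 rose and none fell (median 0.81). Mfap4, a microfibril-associated protein, was at 193 and 172 against 44.3 and 25.9 CPM (log2 fold change 2.41, SE 0.22, adjusted p 3.46e-05). Mfap5 was at 420 and 338 against 183 and 177 CPM, Mfap2 at 201 and 206 against 93.9 and 115 CPM, and Fbln1, fibulin 1, at 307 and 315 against 150 and 189 CPM, and all 3 rose (adjusted p 0.000575, 0.000906 and 0.00154). Without homeostatic library 1 the adjusted p was 0.0586 for Mfap2 and 0.0872 for Fbln1. Col15a1 (chromosome 4, 47208161 to 47313167, 98.7 kb of intron) had a log2 fold change of 0.37 (SE 0.12, adjusted p 0.0533) and of 0.93 (adjusted p 0.000966) with the trend removed. Smoc2 (118 kb of intron) had 0.36 (adjusted p 0.163) and 1.02 (adjusted p 0.00353). Col4a2, a chain of type IV collagen, rose by 0.65 (SE 0.15, adjusted p 0.0102). It was the sole parenchymal fibroblast gene to meet the naming rule, in a list where 2 of 14 rose and 3 fell (median 0.34), and where 4 rose and none fell with the trend removed (median 0.25). Col4a2 overlaps Col4a1 on the other strand.

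Matrix proteases and their inhibitors gave 10 rises and 1 fall among 18 tested (median 0.57), or 8 and 1 with the trend removed (median 0.50). Timp1, an inhibitor of metalloproteinases, was at 345 and 87.3 against 19.8 and 35.7 CPM (log2 fold change 2.99, SE 0.59, adjusted p 0.00448). Without deligated library 1 its log2 fold change was 1.65, and 89.4% of the Timp1 UMIs of that library lay in the 10% of its members with the most. Mmp11 was at 76.8 and 104 against 30.3 and 42.6 CPM and Serpine2 at 212 and 152 against 101 and 107 CPM (adjusted p 0.00105 and 0.00964).

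Among genes with at most 20 kb of intron that met the naming rule, Spp1, Tagln, Acta2, Cilp, Serpina3n, Timp1, Dbp and Slc40a1 had the highest fold changes. Cilp, a matrix protein named for cartilage, was at 597 and 381 against 44.3 and 24.8 CPM (log2 fold change 3.86, SE 0.29, adjusted p 1.19e-05, 3.46 to 4.32 with each library left out). After thinning, 39.8% and 29.6% of deligated members had a Cilp UMI, against 3.6% and 2.70% of homeostatic members and at most 0.402% of endothelial cells. Its level was higher still in Pi16 or Dpp4 fibroblasts, at 1651, 900, 146 and 47.0 CPM. Serpina3n, a serine protease inhibitor, was at 91.0 and 43.4 against 3.50 and 7.49 CPM (log2 fold change 3.61, SE 0.48, adjusted p 0.000408). Slc40a1, the iron exporter ferroportin, was at 29.9 and 20.2 against 5.25 and 4.03 CPM (log2 fold change 2.43, SE 0.36, adjusted p 0.000786).

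Of 10 contractile and activated fibroblast genes tested, 8 rose and 1 fell (median 0.96), or 9 and 1 with the trend removed (median 0.88). Acta2, smooth muscle actin, had 43, 667, 0 and 20 UMIs, or 16.9 and 193 against 0 and 11.5 CPM (log2 fold change 4.21, SE 1.13, adjusted p 0.023). Deligated library 2 held most of it, with 302 UMIs in 1 cell, and 99.6% of its Acta2 UMIs in 10% of the members. Without that library the log2 fold change was 1.63 (adjusted p 0.513). After thinning, 2.55% and 4.38% of deligated members had an Acta2 UMI, against 2.84% and 4.47% of endothelial cells. Its adjusted p without deligated library 1, homeostatic library 1 or homeostatic library 2 was 0.0933, 0.169 and 0.0619. Rgs5, a mural gene, was at 8.27, 90.5, 1.17 and 67.4 CPM.

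Without members that held UMIs of other classes, the log2 fold change of Acta2 was 2.93 (adjusted p 0.0157) and that of Tagln, an actin-binding protein of smooth muscle, was 3.24 (adjusted p 0.0148), against 4.37 with all members. Tagln was at 57.9 and 155 against 1.17 and 9.22 CPM, with 1.53% and 3.09% of thinned deligated members and 2.13% and 2.96% of endothelial cells holding a UMI. In deligated library 1, 130 of its 147 Tagln UMIs were in 1 cell, and in library 2 241 of 537 were. With each library left out the log2 fold change of Tagln was 3.54 to 6.49, with an adjusted p of 0.0781 and 0.130 without deligated library 1 or 2. Myl9, a myosin light chain, rose by 1.68 with all members, by 0.91 (adjusted p 0.0255) without those cells, and had 0.72 (adjusted p 0.106) without deligated library 2. Its adjusted p without deligated library 1, homeostatic library 1 or homeostatic library 2 was 0.0698, 0.111 and 0.141. Runx1, a transcription factor, was at 42.1 and 30.6 against 16.9 and 15.6 CPM (log2 fold change 1.18, SE 0.26, adjusted p 0.00764).

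Of 17 TGF-beta ligands, receptors and binders tested, 4 rose and 3 fell (median 0.27), and with the intron trend removed 7 rose and 1 fell (median 0.32). Tgfb3, a ligand, was at 48.8 and 32.4 against 9.33 and 9.79 CPM (log2 fold change 2.10, SE 0.30, adjusted p 0.000687, 1.76 to 2.44 with each library left out). Ltbp3, which binds latent ligand, and Fstl1, a follistatin-like protein, rose by 0.81 (SE 0.16, adjusted p 0.00418) and 0.71 (SE 0.13, adjusted p 0.00333). Smad3, an intracellular mediator of the pathway with 106 kb of intron, was at 73.3 and 91.9 against 255 and 256 CPM (log2 fold change -1.60, SE 0.14, adjusted p 3.43e-05, and -1.01 with the trend removed). In endothelial cells Smad3 was at 7.99 and 8.29 against 22.1 and 20.4 CPM. Tgfb3 overlaps Ttll5 on the other strand.

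Among 22 growth factor genes tested 9 rose and 2 fell (median -0.02), and with the intron trend removed 7 rose and none fell (median 0.26). Igf1, insulin-like growth factor 1, was at 927 and 653 against 433 and 391 CPM (log2 fold change 0.97, SE 0.18, adjusted p 0.0032). With each library left out its log2 fold change was 0.67 to 1.26, with an adjusted p of 0.051 to 0.0878. It rose more in Pi16 or Dpp4 fibroblasts (by 2.33, interaction -1.41, SE 0.23, adjusted p 0.00138). Gdf10, a TGF-beta family ligand, was at 246 and 129 against 44.3 and 57.0 CPM (log2 fold change 1.91, SE 0.30, adjusted p 0.00118). Gas6, a ligand of TAM receptors, and Pdgfa rose by 0.71 (SE 0.16, adjusted p 0.00795) and 0.89 (SE 0.24, adjusted p 0.0237). Fgf10 (chromosome 13, 118669791 to 118792115, 118 kb of intron), which drives epithelial branching in glands, was at 367 and 213 against 684 and 635 CPM. Both deligated libraries were lower (log2 fold change -1.15, SE 0.23, adjusted p 0.00471), but the value with the intron trend removed was -0.50 (adjusted p 0.18), so the call was lost there.

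Of 22 BMP, Wnt and hedgehog genes, 3 rose and 5 fell (median 0.10), and with the trend removed 3 rose and 3 fell (median 0.04). Sfrp1, a secreted Wnt antagonist, was at 327 and 211 against 89.8 and 81.2 CPM (log2 fold change 1.69, SE 0.22, adjusted p 0.00036). Dkk3, of the Dickkopf family, was at 51.6 and 30.6 against 15.2 and 17.3 CPM (log2 fold change 1.35, SE 0.31, adjusted p 0.00974). Gli2 and Gli3, transcription factors of hedgehog signalling with over 200 kb of intron each, were at 7.88 and 10.1 against 34.4 and 39.8 CPM and at 41.7 and 52.6 against 197 and 180 CPM. They fell by 2.00 (SE 0.24, adjusted p 0.000218) and 1.96 (SE 0.15, adjusted p 1.41e-05) on the log2 scale, and with the trend removed by 0.97 (adjusted p 0.0229) and 0.81 (adjusted p 0.00601).

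Among 21 chemokine, cytokine and adhesion genes 1 rose and 2 fell (median 0.14), where 23.6% of all genes were called. With the trend removed 1 rose and 1 fell, where 15.1% of all genes were called. Il34, a ligand of the macrophage colony-stimulating factor receptor, was at 50.0 and 58.7 against 34.4 and 24.2 CPM (log2 fold change 0.92, SE 0.20, adjusted p 0.00756). Il15, a cytokine of natural killer cells, was at 33.9 and 57.8 against 137 and 131 CPM (log2 fold change -1.5, SE 0.21, adjusted p 0.000513), with 14.3 and 21 against 34.7 and 37.4 CPM in endothelial cells. Cxcl12, which retains immune and stem cells, was at 726 and 764 against 584 and 607 CPM, without overlap, and its log2 fold change of 0.35 (SE 0.12) had an adjusted p of 0.0636. Il33, an alarmin, overlapped between groups at 314, 352, 327 and 290 CPM (log2 fold change 0.14, SE 0.13, adjusted p 0.479).

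Complement genes gave 3 rises among 10 tested (median 0.25), where 23.6% of all genes were called. With the trend removed 2 rose, where 15.1% of all genes were called. C2, of the classical pathway, was at 132 and 184 against 101 and 120 CPM (log2 fold change 0.54, SE 0.17, adjusted p 0.0473). C3 was at 796, 854, 633 and 859 CPM with overlapping groups (log2 fold change 0.17, SE 0.16, adjusted p 0.471). Its change differed between the sets (interaction 1.32, SE 0.17, adjusted p 0.000137), and in Pi16 or Dpp4 fibroblasts C3 was at 1004 and 1081 against 2582 and 2149 CPM. Of 20 interferon response genes 1 rose (Ifi44, by 1.03, SE 0.24, adjusted p 0.0103) and none fell, with a median of -0.11 (-0.24 with the trend removed).

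Retinoid genes had the lowest median of the 20 lists, -0.52, with 1 rise and 4 falls among 10 tested (1 and 3 with the trend removed, median -0.45). Rarb, a retinoic acid receptor with 383 kb of intron, was at 18.1 and 39.0 against 196 and 160 CPM and fell by 2.58 (SE 0.26, adjusted p 7.34e-05), or 1.17 with the trend removed (adjusted p 0.0134). It was also lower in deligated endothelial cells, at 3.44 and 4.50 against 33.4 and 35.4 CPM. Crabp1, with 7.56 kb of intron, was at 247 and 355 against 635 and 452 CPM (log2 fold change -0.83, SE 0.19, adjusted p 0.0112), and its level in endothelial cells was under 1 CPM in every library. Cyp26b1, which degrades retinoic acid, was at 66.2 and 119 against 209 and 139 CPM and fell by 0.88 (SE 0.25, adjusted p 0.0291), beside 42 and 243 against 1059 and 1002 CPM in endothelial cells.

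Circadian clock genes changed in both directions. In the clock, ARNTL with CLOCK or NPAS2 activates Nr1d1, Nr1d2, Per, Cry and Dbp genes, NR1D1 and NR1D2 repress Arntl and Npas2 through ROR elements, and DBP and TEF bind D-boxes. Of 14 genes tested 7 rose and 4 fell, against 23.6% called over all genes. With the intron trend removed 5 rose and 4 fell, against 15.1%. Nr1d1 was at 112 and 154 against 26.8 and 27.7 CPM (log2 fold change 2.31, SE 0.19, adjusted p 1.98e-05). Dbp was at 40.6 and 57.0 against 10.5 and 6.34 CPM (log2 fold change 2.56, SE 0.29, adjusted p 0.000138), and Nr1d2 at 47.7 and 49.7 against 22.7 and 14.4 CPM (log2 fold change 1.42, SE 0.23, adjusted p 0.00131). Npas2 was at 22.4 and 32.4 against 188 and 209 CPM (log2 fold change -2.81, SE 0.18, adjusted p 3.66e-06, and -1.94 with the trend removed). Cry1, a repressor, was at 4.33 and 4.34 against 13.4 and 15.6 CPM and fell by 1.70 (SE 0.33, adjusted p 0.00428). Cry1 was chosen after its values were seen. The labels used here give no hour of harvest.

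**Figure D5:**
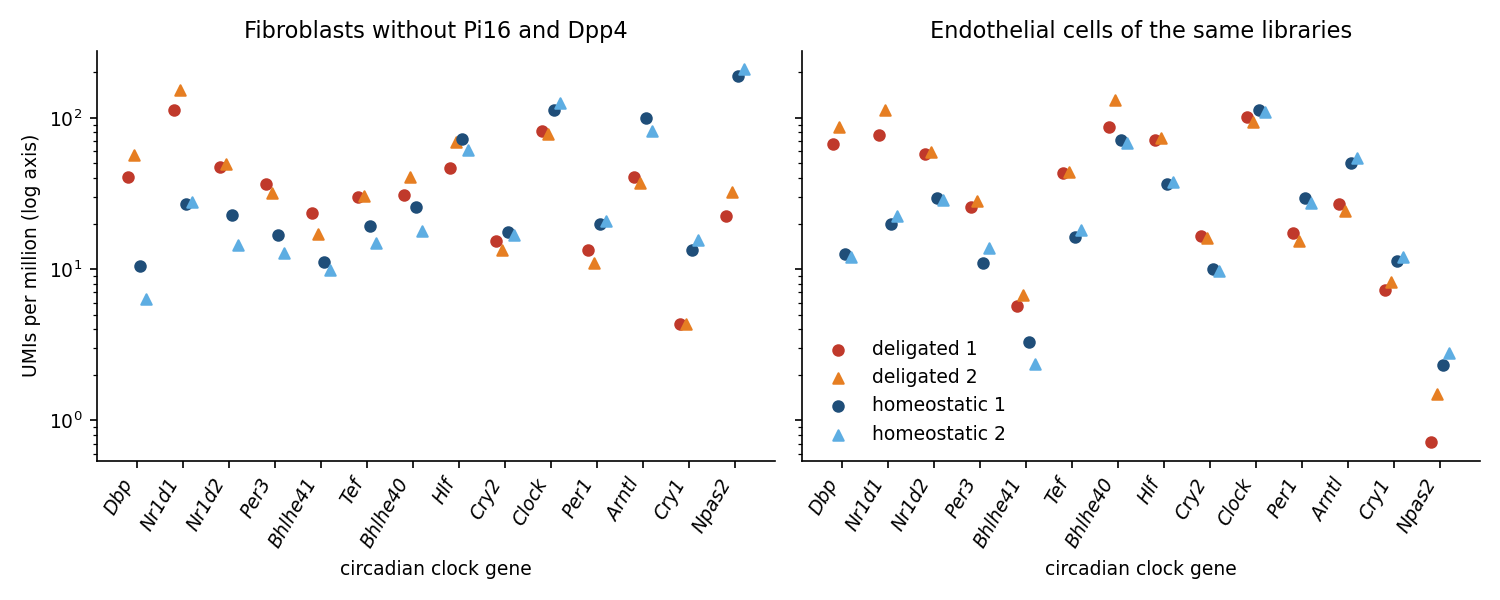
Level of 14 circadian clock genes (CPM, log axis) in fibroblasts without Pi16 and Dpp4 (left) and in endothelial cells of the same libraries (right), 1 point per library. Dbp and Nr1d1 are higher and Arntl and Npas2 lower in both deligated libraries in either panel, with Npas2 at 188 and 209 in homeostatic members and at most 2.80 in endothelial cells.

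No test between groups was made in endothelial cells, and their levels are given beside those of members. In endothelial cells Nr1d1 was at 77.5 and 112 against 20.0 and 22.6 CPM, Dbp at 66.9 and 87.5 against 12.7 and 11.9 CPM, and Npas2 at 0.719 and 1.5 against 2.32 and 2.80 CPM, the last from few UMIs. Hlf stood at 71.0 and 73.4 against 36.5 and 37.9 CPM in endothelial cells and at 46.9 and 69.7 against 72.9 and 61.6 CPM in members. Per3 and Arntl, chosen after their values were seen because they changed in opposite directions and their promoters hold a motif, were at 36.2 and 31.8 against 16.9 and 12.7 CPM (log2 fold change 1.22, SE 0.24, adjusted p 0.00448) and at 40.6 and 37.0 against 99.1 and 81.2 CPM (log2 fold change -1.19, SE 0.17, adjusted p 0.000557).

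The promoters of Per3 and Arntl are shown because these genes moved in opposite directions and carry binding letters for the factors above. Each run is 300 bases, 5′ to 3′ on the gene's strand, 250 before and 50 after the start in RefSeq on GRCm38.p6, with every motif match in capitals. For Per3 (chr4:151044616-151044915, minus strand) the capitals mark the D-box TTATGTAA, and for Arntl (chr7:113207261-113207560, plus strand) they mark the ROR element core AGGTCA. The table holds 2 starts of Arntl, of which 1 is printed.
Per3: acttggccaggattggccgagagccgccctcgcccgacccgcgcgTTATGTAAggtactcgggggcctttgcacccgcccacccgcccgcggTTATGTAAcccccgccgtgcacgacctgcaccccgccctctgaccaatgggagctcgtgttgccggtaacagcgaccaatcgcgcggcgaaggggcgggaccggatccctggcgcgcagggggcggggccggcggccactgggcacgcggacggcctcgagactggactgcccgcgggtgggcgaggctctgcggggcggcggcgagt
Arntl: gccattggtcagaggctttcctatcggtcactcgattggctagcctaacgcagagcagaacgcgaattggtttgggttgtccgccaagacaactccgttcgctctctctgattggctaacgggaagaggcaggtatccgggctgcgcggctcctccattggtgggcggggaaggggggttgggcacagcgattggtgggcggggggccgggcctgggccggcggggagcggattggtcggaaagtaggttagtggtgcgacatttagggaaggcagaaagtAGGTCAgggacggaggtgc

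On both strands, TTATGTAA was found in 0.938% of 32851 promoters of this length, and in 1 of the 13 tested clock genes with a promoter in the table, Per3, with 2 matches. AGGTCA was in 16.3% of promoters and in those of Arntl, Clock, Nr1d2 and Per1. CACGTG, the E-box bound by ARNTL and CLOCK, was in 7.15% of promoters and in those of Bhlhe41, Cry1, Per1 and Tef. Neither printed promoter was in the lists of the other 2 motifs, and a match is a description of the sequence only.

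Of 21 immediate early and dissociation genes 9 rose and none fell (median 0.62), and with the trend removed 7 rose and none fell (median 0.36). Dusp1, a phosphatase of MAP kinases, was at 82.3 and 87.6 against 25.1 and 27.1 CPM (log2 fold change 1.73, SE 0.16, adjusted p 4.59e-05). Zfp36, Junb and Ier3 rose by 1.48 (SE 0.16), 1.19 (SE 0.17) and 1.86 (SE 0.41), with adjusted p values of 0.000101, 0.000595 and 0.00861. In endothelial cells Dusp1 was at 317 and 580 against 184 and 179 CPM and Junb at 706 and 1040 against 505 and 488 CPM. Their part in the other differences was not tested. Of 12 heat shock genes 2 rose, Hspb1 by 1.30 (SE 0.16, adjusted p 0.000246) and Hspa1b by 1.22 (SE 0.22, adjusted p 0.003), and the median was 0.09. With the trend removed 2 rose and 1 fell, and the median was -0.17.

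Glucocorticoid response genes gave 3 rises and 3 falls among 10 tested (median 0.39), or 4 and 3 with the trend removed (median 0.10). Ddit4 was at 30.3 and 22.6 against 4.08 and 9.79 CPM (log2 fold change 1.93, SE 0.36, adjusted p 0.00356), and Sgk1, a kinase, rose by 0.71 (SE 0.18, adjusted p 0.0191). Zbtb16, a transcription factor, fell by 1.93 (SE 0.23, adjusted p 0.000197) and Cdkn1a, a cell cycle inhibitor, by 0.91 (SE 0.29, adjusted p 0.0447). Of 20 cell cycle genes 7 reached the level needed for a test, and 1 of these rose (median 0.37), a call lost with the trend removed (median 0.20).

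The genes lowest in deligated members that met the naming rule were secretory products of the epithelium and unnamed gene models. Dcpp3, Dcpp2 and Dcpp1, secreted proteins of the demilune cells, had 745, 574 and 190 UMIs in homeostatic library 1 and 96, 55 and 23 in homeostatic library 2, against 1 to 4 UMIs in each deligated library. Klk1b9 had 106 and 110 against 3 and 2 UMIs, and Crisp3 102 and 92 against 1 and 4 UMIs. Endothelial cells held Dcpp3 at 329 and 494 CPM and Klk1b9 at 80.6 and 90.6 CPM in the homeostatic libraries, beside 434 and 55.3 CPM and 61.8 and 63.4 CPM in members. Klk1b9 was at 465 CPM in the 20 and 16 cells of homeostatic cluster 5, described with the clusters below, and at 27.7 CPM in the other homeostatic members. Where this RNA came from was not tested. Dcpp1, Dcpp2 and Dcpp3 are near-identical copies, so their split is uncertain. Gm48099, Gm11084 and Gm19951 had no UMI in members or in endothelial cells of either deligated library. In homeostatic members they were at 28.1, 25.8 and 20.6 CPM, at least 27.4-, 25.2- and 20.1-fold higher than in deligated members with 3 counts per library in place of 0.

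Members were not uniform within a group. Clustering of deligated members, without the rule genes, gave 5 clusters. Cluster 1 was led by Timp1, Ptn, Ltbp2, Spp1, Col8a1, Postn and Cilp and held 88 cells (44.4%) of deligated library 1 and 67 (16.7%) of library 2. Spp1 was at 2152 CPM in this cluster and 471 CPM in the other members. Cluster 2, led by Slc4a4, Csrp2, Col6a5 and Kera, a proteoglycan, held 93 cells (47.0%) and 30 cells (7.46%). Cluster 4, led by Adra2c, Gzmc, Bmp7, Hsd11b1, which regenerates active glucocorticoid, and Fcer1g, held 8 (4.04%) and 168 cells (41.8%). Gzmc, Fcer1g and Ccl4, the last also among its top 10 genes, are known from immune cells. The libraries of this group thus filled the clusters unequally, and a cluster mostly of 1 library may be that library rather than a kind of cell.

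The remaining deligated clusters carried genes of other programmes. Cluster 3 was led by haemoglobins and interferon genes such as Cxcl10, Oasl1, Rsad2 and Ifit3, with 7 and 49 cells. Cluster 5 was led by Acta2, Rgs5, Myh11 and Tagln, genes of mural cells, with 2 and 88 cells, and each of these 4 genes had a UMI in 10.0% to 15.6% of its cells.

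Homeostatic members gave 7 clusters, each with cells of both libraries. Cluster 1 (62 and 54 cells) was led by Spp1, Adra2c, Cilp, Il34 and Mfap4. Spp1 was at 133 CPM in it and 13.3 CPM in the others, and Cilp at 109 and 14.4 CPM. Cluster 2 (19 and 26 cells) was led by the interferon genes Cxcl10, Rsad2, Ifit3 and Ifit1. Cluster 3 (41 and 52 cells) was led by C4b, Tmeff2, Nova1 and Ly6c1, the last an adventitial gene. Clusters 4 and 5 were led by the secretory products Car6, Pip and Mucl2 and by Klk1 and its relatives, and cluster 7 by Dcpp2, Dcpp3 and Brinp3. Cluster 6 (8 and 3 cells) was led by haemoglobins, Cd74 and C1qb, genes of red cells and macrophages. Clusters were described without a test, since the genes that define them chose the cells, and their sizes were not compared between groups.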

How the data were processed

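Single-cell RNA-seq of 4 stroma-enriched libraries was analysed from the deposited matrices of raw UMI counts per gene and barcode. Per the submitters' processing notes the data were made with Cell Ranger 6.0.1 and Seurat on mm10; per the file headers the homeostatic matrices came from Cell Ranger 7.0.0. Whether intronic reads or strand were used in counting is not given in the sources used here. Of 31053 gene identifiers, 31011 (99.9%) matched GENCODE M21 (GRCm38), which gave coordinates and intron lengths.

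Barcodes with at least 300 genes and at most 10% mitochondrial UMIs were retained. Doublets were not removed in the main analysis; members scored as doublets numbered 0, 5, 20 and 22. The members and the 20 gene lists were chosen with earlier results of these data known. Member UMIs were summed per library, and the library (2 per group) was the replicate. Deligated and homeostatic sums were compared with edgeR 4.0.16 (quasi-likelihood, TMM, filterByExpr, Benjamini-Hochberg over all genes, threshold 0.05) without a replicate term. The interaction was fitted on sums of both fibroblast sets with the library as a block. DESeq2 1.42.0 was an alternative. Ratios of the fibroblast sets used log2(CPM + 5). Endothelial reference cells (1620, 2158, 3913 and 3875) had at least 2 UMIs of Pecam1 and Cdh5 together and none of Pdgfra, Dcn, Lum, Dpt, Clec3b or Ptprc. Clusters were made with scanpy 1.11.5 (Leiden, resolution 0.5). UMIs were not scaled to transcript length, so levels were compared within a gene.

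Genes were named by rule: 13 fixed genes; up to 4 per list with the largest change past 0.05 in both the main fit and the fit without the intron trend, at a mean of 20 CPM or more in 1 group; the 8 highest and 8 lowest with at most 20 kb of intron; the 6 largest interactions; the 15 most abundant genes; and the 8 highest and 8 lowest ratios between the sets. A few genes that met the rule are not reported here. Rule genes, markers and cluster leaders were given by value. Alternatives were another test, scaling, filters on genes and cells, thinning to 2000 UMIs, removal of doublets or of cells with UMIs of other classes, removal of the intron trend, a replicate block and leaving out each library. Fibroblast counts limit the precision, and intervals cover counting error only.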

Additional observations from a re-analysis of the deposited data

Results flagged for a closer look

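The change from homeostatic to deligated libraries differed between fibroblasts without and with Pi16 or Dpp4 for 413 genes by a test of the interaction. The 6 largest fitted interactions (log2, change in members minus change in Pi16 or Dpp4 fibroblasts) were 9.75 for Rgs6 (adjusted p 0.00165), 8.29 for Arl4d (0.00864), -8.20 for Thbs4 (0.0152), -8.06 for Npy1r (0.0262), 8.03 for Smpd3 (0.00128) and 7.76 for Itgb7 (0.0236). Each of the 6 had no UMI in 1 or more libraries of a set, so the fitted values depend on the prior count and are no bound. The UMIs themselves were for Rgs6 0, 0, 60 and 45 in Pi16 or Dpp4 fibroblasts against 1, 6, 3 and 8 in members. Pi16 itself was at 586 and 451 CPM in the deligated against 1977 and 1393 CPM in the homeostatic cells of the set with Pi16 or Dpp4, and the part of the split by these genes in the 413 calls was not tested.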

How the results depend on the processing

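The number of genes passing 0.05 between groups was 2529 with all settings as reported. Members with adventitial programme UMIs (6 genes, chosen after seeing the data) were 26.3% and 20.4% of deligated and 35.3% and 31.4% of homeostatic members. The number of calls stayed within 1.5 times of 2529 without these members, under DESeq2 size factors, the stricter cell filter and the replicate block (2955). It also did so with removal of doublets or of cells with UMIs of other classes. It was 1240 without a filter on low counts, 1315 with cells thinned before the rule, 1465 with DESeq2, 1621 with the intron trend removed, and 83 among genes with at most 5 kb of intron. With each library left out it was 0 to 1096. The genes of the 20 lists gave 135 calls, 67 without a filter, 14 with at most 5 kb of intron, and 0 to 61 with each library left out. The replicate numbers did not pair the libraries, so the block is given only here. Deviations from the group mean had a correlation of -0.003 between libraries of the same number. With 2 libraries a group, both pairs give this same value by construction.

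The interaction gave 413 calls, 214 with doublets removed and 153 to 321 with each library left out. It was not run on thinned cells, because the homeostatic libraries then held 19 and 15 Pi16 or Dpp4 fibroblasts, under the minimum of 20. The log2 ratio of the member share of retained cells was 1.06, and 0.84 with the stricter filter, 0.87 thinned and 1.27 without adventitial programme cells. That of the share of fibroblasts was -0.45, and -0.17 thinned. Of the single-gene results reported, 81 kept and 9 lost their side of the threshold with DESeq2, and 67 kept and 29 lost it without a filter on low counts. With 1 library left out at a time, 187 of these values stayed on their side and 204 lost it. Depth limits the homeostatic Pi16 or Dpp4 sums most, at 300911 and 276399 UMIs.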
